A study of Beta vulgaris with 12 samples.

Results

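The salt by day interaction asks, gene by gene, whether salt changed expression by the same amount on day 1 and on day 7. It was measured here in roots of sugar beet (Beta vulgaris, cultivar KWS0143), a crop derived from a seashore plant, over all 12 of the 12 libraries of the series. The 4 groups were control roots on day 1 (CK_1), roots of salt-treated seedlings on day 1 (S_1), control roots on day 7 (CK_7) and roots of salt-treated seedlings on day 7 (S_7), with 3 libraries per group. All seedlings were 4 weeks old at the start and grew hydroponically in diluted Hoagland nutrient solution, and the salt was a mixture of NaCl and Na2SO4 brought up in steps to 300 mM Na+. Which step counts as the start of day 1 is not given in the sources used here, and each day had controls of its own.

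Roots meet salt as an osmotic shock and, later, as Na+ that enters and must be kept out of the xylem, stored or balanced by K+. The endodermis and the outer root layers limit that entry with lignin, which peroxidases and laccases polymerize, and with suberin, a polyester of long fatty acids laid down by acyltransferases, cytochrome P450 enzymes, fatty acyl reductases and GDSL lipases. HKT carriers retrieve Na+ from the xylem sap, and KUP/HAK transporters and AKT1 channels take up K+. A control that keeps growing for a week also changes its own expression, and the interaction compares each salt group with the control of its own day.

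Expression values were FPKM, fragments scaled to transcript length and to the mapped reads of a library. The salt effect of a day is the difference S minus CK of mean log2(FPKM + 1), and the difference between the days is the salt effect on day 7 minus that on day 1. A gene was called when limma's Benjamini-Hochberg adjusted p, over all genes tested, was under 0.05. A pseudocount of 1 FPKM understates changes of weakly expressed genes. The replicates are described as biological, but how many seedlings entered a library is not given, so p-values measure the spread between these libraries. In whole roots, fewer cells of a type and less RNA per cell cannot be told apart. Genes that encode the photosynthetic apparatus, used as shoot markers (49 genes), took between 0.0213% and 0.154% of the summed FPKM of a group's libraries, the highest value in S_1, and none of them was called (8 at an unadjusted p under 0.05). Xylem and phloem markers (13 genes) took 0.103% to 0.117% in CK_7 and 0.0486% to 0.0885% in the other groups. Root hair and epidermis markers (37 genes) ranged from 0.0454% to 0.643%, and their groups overlapped. The part of these marker levels in the results below was not tested.

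The salt effect differed between the days in 1.76% of the 28320 genes. It was lower on day 7 in 265 genes (0.936%) and higher in 234 (0.826%). For comparison, salt effects within a day were called in 5.23% of genes on day 1 (1482) and in 2.4% on day 7 (680). That order rests on the fit of all 12 libraries. Fits of the 6 libraries of 1 day alone, added after the data were seen, gave 209 calls on day 1 and 462 on day 7. Day 1 fell to 776 without CK_1 replicate 1 and to 975 and 843 without S_1 replicates 2 and 3, and day 7 to 392, 408 and 343 without CK_7 replicates 1, 2 and 3 and to 329, 445 and 420 without S_7 replicates 1, 2 and 3. In the fit of 12 libraries salt raised 2.87% and lowered 2.36% of genes on day 1 and raised 1.34% and lowered 1.06% on day 7. Among the genes with a lower salt effect on day 7, 135 were raised by salt on day 1 with no call on day 7, 90 were lowered on day 7 with no call on day 1, and 12 were raised on day 1 and lowered on day 7. In the opposite direction, 133 genes were lowered by salt on day 1 alone, 62 were raised on day 7 alone, and 12 were lowered first and raised later. A further 50 genes had no salt call on either day. In 247 called genes the 3 salt libraries lay beyond the 3 control libraries on both days in opposite directions, which held for 2.17% of all genes, these included. Choosing genes by their difference favours such a pattern. The total of 499 fell to 289 without CK_1 replicate 1, to 312 and 273 without CK_7 replicates 2 and 3, and to 324, 281 and 295 without S_7 replicates 2, 1 and 3. In 184 of the 499 genes (36.9%) the call held with each of the 12 libraries left out in turn.

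**Figure D1:**
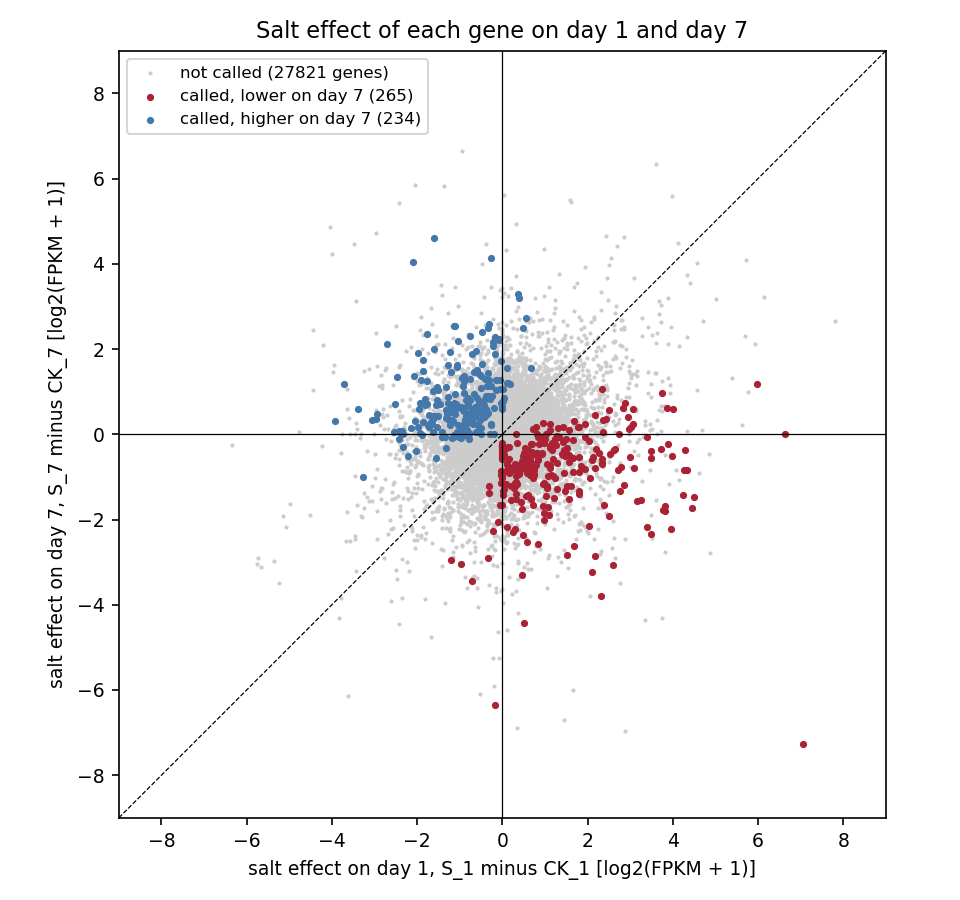
Salt effect on day 7 (vertical axis, log2) against the salt effect on day 1 (horizontal axis, log2) for every gene tested, with genes of a higher and a lower salt effect on day 7 in colour. The 265 genes called lower lie below the dashed line of equal effects and the 234 called higher lie above it. In 398 of these called genes the effects on the days have opposite signs, which choosing genes by their difference favours.

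Because the interaction involves 4 means, it was asked which group stood apart from the other 3, that is, the group whose removal left the smallest range among the remaining means. A control group stood apart in 359 called genes (71.9%), against 54.6% of the 17146 genes with a mean of at least 1 FPKM. These shares are over unlike sets, since only 368 of the 499 called genes had such a mean. The called genes were also chosen by the same 4 means, and the part of that choice in the shares was not tested. CK_1 was low in 108 called genes and high in 103, CK_7 was high in 110 and low in 38, and S_7 was high in 48 and low in 7. S_1 was low in 45 and high in 40. Shifts between the days within the controls and within the salt groups were also called, as comparisons added after the data were seen. CK_7 differed from CK_1 in 396 of the 499 genes (79.4%, against 14.2% of all genes), and S_7 differed from S_1 in 177 (35.5%, against 6.42%). In genes with a lower salt effect on day 7 the controls moved by a median of 1.38 on the log2 scale from day 1 to day 7, upward in 252 of 265, while the salt groups moved by a median of -0.35. In genes with a higher salt effect the medians were -0.94 for the controls and 0.57 for the salt groups. These shifts use the same 12 libraries as the interaction and are a description of its 4 means. The interaction is also the change between the days in salt groups minus that in controls. Choosing genes by it favours such changes, so the excess over all genes is no test of them.

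**Figure D2:**
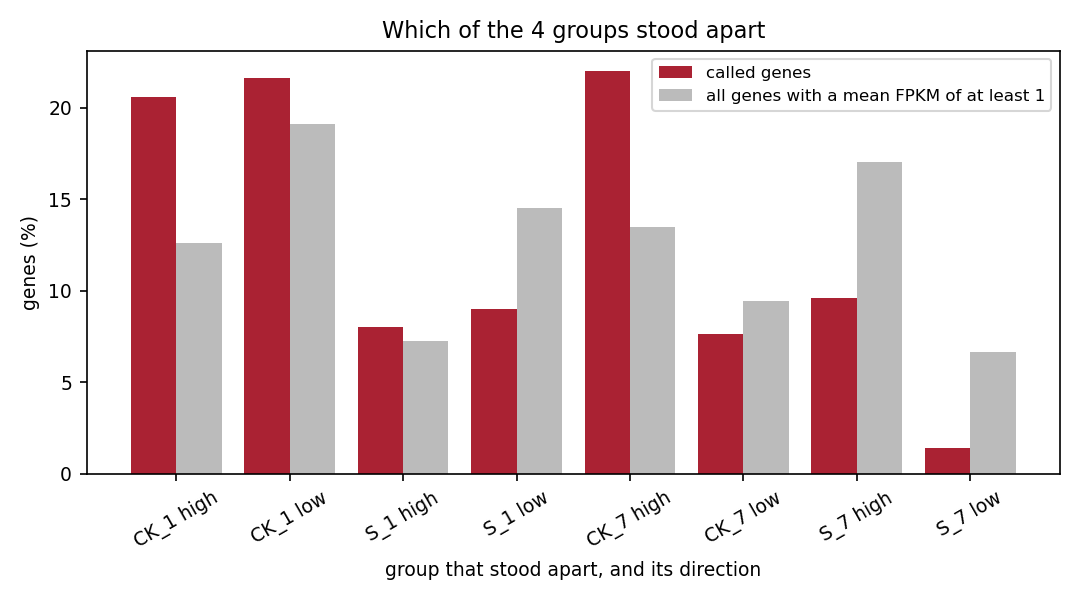
Share of genes (vertical axis, %) in which each group stood apart from the other 3, high or low (horizontal axis), for called genes and for all genes with a mean of at least 1 FPKM. CK_7 high (22%), CK_1 low (21.6%) and CK_1 high (20.6%) were the most frequent among called genes, whereas S_7 high was 9.62% of called genes and 17% of all genes with that mean. Called genes were not held to that mean.

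Of the wall barrier genes called with a lower salt effect on day 7, salt raised 20 on day 1 and none on day 7. Choosing genes by that difference favours such a result. The 5 lists concerned (Casparian strip and suberin genes, GDSL esterases and lipases, class III peroxidases, laccases and dirigent proteins, lipid-transfer proteins) held 340 genes, of which 24 had a lower salt effect on day 7 (7.06%, against 0.936% of all genes) and 5 a higher one (1.47%, against 0.826%). These lists were joined with earlier results of these data known, which favours a high share. Outside them, 5.26% of phenylpropanoid and monolignol enzymes, 1.64% of expansins and xyloglucan enzymes and 0.935% of pectin-modifying enzymes were called lower. The median difference between the days was -0.03 over all 340 members, against 0.01 for all genes tested, and -0.37 over the 199 members with a mean of at least 1 FPKM, called expressed members from here on, against 0.05 for all such genes. Other members were raised on day 7, namely 3 of 93 peroxidases, 3 of 34 laccases or dirigent proteins, 2 of 95 suberin genes and 2 of 83 GDSL genes. Over the same lists 3, 1, 2 and 3 genes were lowered on day 7. Of all genes, salt raised 1.34% and lowered 1.06% on day 7. Of the 24 genes, 20 were raised by salt on day 1, 4 were lowered on day 7, and in 20 CK_1 stood apart as low. Their number was 15 without S_7 replicate 1 and 23 without S_1 replicate 3, the library in which their sum was highest.

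Summed over these 24 genes, expression was 65.9, 77.9 and 71.2 FPKM in CK_1, 633, 604 and 1520 in S_1, 632, 699 and 953 in CK_7, and 405, 512 and 457 in S_7. Every CK_1 library lay far below all 9 others, S_1 replicate 3 lay far above its own group, and the S_7 libraries lay between. The sum is over genes picked by the test and is a description of them. The whole list of 95 Casparian strip and suberin genes did not share it: its summed FPKM was 497 to 724 in CK_1, 762 to 1030 in S_1, 556 to 816 in CK_7 and 514 to 580 in S_7, so that CK_1 overlapped CK_7 and S_7.

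Peroxidase 20 (LOC104892966), a secreted class III peroxidase of the family that oxidizes monolignols, had 0.413, 1.47 and 0.479 FPKM in CK_1, 21.6, 14.3 and 56 in S_1, 35.3, 33.6 and 43.7 in CK_7, and 4.65, 12.3 and 6.49 in S_7. CK_1 was lowest without overlap, S_1 and CK_7 overlapped, and S_7 lay below both. Salt raised it by 3.97 ± 0.48 (SE) on day 1 and lowered it by 2.21 ± 0.48 on day 7, and the difference between the days was -6.18 ± 0.67 (limma adjusted p = 0.0044). Peroxidase 11 (LOC104896291), of the same family, had 1.37, 2.78 and 2.41 FPKM in CK_1, 39.7, 36.5 and 132 in S_1, 58.9, 61.4 and 82.2 in CK_7, and 18.2, 32.7 and 23.6 in S_7. Its groups were ordered as for peroxidase 20. The difference between the days was -5.66 ± 0.63 (adjusted p = 0.0044), from a salt effect of 4.23 on day 1 and -1.43 on day 7, the latter not called (adjusted p = 0.145).

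The peroxidase list as a whole did not lean that way. Of its 93 genes 4 were called lower (4.3%, against 0.936% of all genes) and 2 higher (2.15%, against 0.826%). The median was 0.09 over all members and 0.31 over the 66 expressed ones, with 37 positive and 29 negative differences. The lower calls were 2 without CK_1 replicate 1 or 3, S_1 replicate 1 or 2, CK_7 replicate 3 or S_7 replicate 1 or 2. Peroxidase P7 (LOC104898204) had 189, 189 and 162 FPKM in CK_1, 28, 46.4 and 21.3 in S_1, 179, 64.8 and 261 in CK_7, and 276, 178 and 280 in S_7. S_1 was lowest, and the other groups overlapped (difference 3.25 ± 0.66, adjusted p = 0.0447). The peroxidase 25 locus (LOC104902035, joined with a carbonic anhydrase gene) had means of 61.1, 11.3, 37.1 and 41.6 FPKM and a difference of 2.43 (adjusted p = 0.0325). These calls held in 3 and 4 of the 12 fits that leave out a library, with adjusted p up to 0.102 and 0.0782 in the others. Peroxidase N (LOC104889892), which the list does not hold, had means of 61, 32.3, 4.86 and 28.3 FPKM and a difference of 3.06 (adjusted p = 0.0215), lost without CK_7 replicate 3 or S_7 replicate 1 or 3 (up to 0.0553).

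Quantitative PCR primers designed for this peroxidase gene are shown because they fix which sequence such an assay reads. They are given 5′ to 3′ in lower case with no position marked, and no chromosome is given for the gene in the annotation used.
Peroxidase 11 forward: tgggaagaaaggatgctcg
Peroxidase 11 reverse: gtctccgtagattcttgccct

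Laccase-12 (LOC104905953), a copper oxidase of the kind that polymerizes lignin, had 10, 5.82 and 11.4 FPKM in CK_1, 132, 151 and 369 in S_1, 46.9, 55.3 and 78.5 in CK_7, and 27.5, 46.2 and 26.4 in S_7. Here S_1 was highest, all 3 of its libraries lying above every other. Salt raised it by 4.33 ± 0.41 on day 1, and the difference between the days was -5.18 ± 0.58 (adjusted p = 0.0044). A laccase-3-like gene (LOC104900210) differed by -1.47 (adjusted p = 0.0126) and had under 0.2 FPKM in CK_1 only. Laccase-7 (LOC104893909) went the other way. It had 44, 96.3 and 45.3 FPKM in CK_1, 52.5, 61.1 and 51.4 in S_1, 13.3, 13.8 and 15.6 in CK_7, and 75.7, 65.6 and 67.1 in S_7. Only CK_7 was apart, below all 9 other libraries, and salt raised the gene on day 7 (2.21 ± 0.26, adjusted p = 0.00424; difference 2.28, adjusted p = 0.0183). Of the 34 laccases and dirigent proteins, 4 were called lower (11.8%, against 0.936% of all genes) and 1 higher (2.94%, against 0.826%). The median was -0.59 over all members and -1.13 over the expressed ones. The 4 lower calls became 2 without CK_1 replicate 1, S_1 replicate 2, S_7 replicate 1 or 2, or any library of CK_7.

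In the suberin list (95 genes), 7 were called lower (7.37%, against 0.936% of all genes). None was called higher, against 0.826% of all genes (6 higher at an unadjusted p under 0.05). The median was -0.04 over all 95 and -0.51 over the 51 expressed members. The number of lower calls was 4 without CK_1 replicate 1, CK_7 replicate 2 or 3, or S_7 replicate 3. Cytochrome P450 86B1 (LOC104902574), which in Arabidopsis hydroxylates very long chain fatty acids for suberin, had 0.548, 0.679 and 0.558 FPKM in CK_1, 11.6, 8.99 and 22 in S_1, 8.85, 8.28 and 17.6 in CK_7, and 2.92, 6.38 and 1.24 in S_7. CK_1 lay below all others, and S_7 below both S_1 and CK_7. The difference between the days was -4.73 ± 0.65 (adjusted p = 0.0107). Glycerol-3-phosphate acyltransferase 8 (LOC104887286), of a family that joins these acids to glycerol, had 6.28, 5.73 and 6.3 FPKM in CK_1, 28.1, 51.1 and 65.2 in S_1, 28.1, 27.2 and 35 in CK_7, and 13.2, 22.3 and 14.9 in S_7. It differed by -3.54 ± 0.4 (adjusted p = 0.00484).

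The fatty alcohols of suberin are made by alcohol-forming fatty acyl-CoA reductases, of which 2 genes were called. LOC104901603 had group means of 3.98, 31, 52.4 and 41.9 FPKM in CK_1, S_1, CK_7 and S_7 (SD 0.844, 9.39, 7.71 and 11.5, n = 3 each) and a difference of -2.99 ± 0.37 (adjusted p = 0.00677). LOC104900337 had means of 1.21, 10.4, 17.6 and 22.5 FPKM (SD 0.0633, 1.65, 2.15 and 2.61) and a difference of -2.01 ± 0.2 (adjusted p = 0.00389). In both genes all CK_1 libraries were lowest and the salt effect on day 7 was not called. Long chain acyl-CoA synthetase 4 (LOC104884969), which activates fatty acids, had 2.22, 2.85 and 2.54 FPKM in CK_1, 43.1, 37.2 and 102 in S_1, 30.8, 29.3 and 37.8 in CK_7, and 19.2, 28.7 and 20.9 in S_7. Again CK_1 was lowest, and S_7 lay below S_1 and, narrowly, below CK_7. The difference was -4.49 ± 0.46 (adjusted p = 0.0044). A further list member, cytochrome P450 locus LOC104887268, shares its values with a joined neighbour that encodes a replication complex subunit and differed by -1.97 (adjusted p = 0.0457). That call held in only 3 of the 12 fits that leave out a library, those without CK_1 replicate 2, S_1 replicate 2 or S_1 replicate 3, with adjusted p up to 0.106 in the others.

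GDSL enzymes are a hydrolase family with members that assemble or trim cutin and suberin. Of 83 genes, 6 were called lower (7.23%, against 0.936% of all genes) and 1 higher (1.2%, against 0.826%). The median was -0.04 over all members and -0.44 over the expressed ones. At1g74460-type LOC104894041 had 1.45, 2.25 and 2.05 FPKM in CK_1, 28.8, 25.7 and 83.8 in S_1, 42.1, 58.9 and 93.8 in CK_7, and 15.6, 16.3 and 19.2 in S_7. The difference was -5.61 ± 0.6 (adjusted p = 0.0044), with CK_1 lowest and S_7 below S_1 and CK_7. At2g23540-type LOC104895639 differed by -5.55 ± 0.85 (adjusted p = 0.0154) and At1g28610-type LOC104909076, with group means of 10.5, 60.8, 31.8 and 41 FPKM, by -2.07 ± 0.2 (adjusted p = 0.00325). At5g22810-type LOC104903605 differed by -5.49 (adjusted p = 0.0205), but not without S_7 replicate 1 (adjusted p = 0.0518), and its S_1 libraries were uneven, at 16.7, 21.2 and 109 FPKM. The member with a higher salt effect on day 7, GDSL esterase/lipase 5 (LOC104899693, named after its values were seen), had 26.2, 28.1 and 24 FPKM in CK_1, 8.1, 8.12 and 8.17 in S_1, 21.6, 18.6 and 21.7 in CK_7, and 15.9, 12.7 and 12.8 in S_7. Salt lowered it on both days, by 1.57 and then by 0.55, a difference of 1.02 (adjusted p = 0.0177).

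Lipid-transfer proteins, small secreted carriers of wall lipids, had 3 lower calls of 35 genes (8.57%, against 0.936% of all genes) and 1 higher (2.86%, against 0.826%). The median was -0.27 over all members and -0.91 over the expressed ones. The higher call held only without CK_1 replicate 1 or CK_7 replicate 3. The At2g13820-type gene LOC104894518 had 0.239, 0.546 and 0.768 FPKM in CK_1, 21.6, 13.4 and 32.5 in S_1, 6.88, 8.58 and 9.84 in CK_7, and 4.98, 7.16 and 9.4 in S_7. Its S_1 libraries were highest, its CK_1 libraries lowest and the day 7 groups overlapped (difference -4.11 ± 0.45, adjusted p = 0.0044). LOC104908115 differed by -2.98 (adjusted p = 0.0179), from a mean of 15 FPKM in CK_1 to 106 in S_1 and 66.6 and 52.3 on day 7. LOC104904284 differed by -3.89 (adjusted p = 0.0214), a call lost without CK_7 replicate 3 (0.0515) or S_7 replicate 1 (0.0505).

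Enzymes and regulators beside these lists were called in both directions. Caffeic acid 3-O-methyltransferase (LOC104888149), which methylates lignin precursors, had group means of 18.6, 159, 110 and 166 FPKM in CK_1, S_1, CK_7 and S_7 (SD 7.31, 42.1, 4.9 and 18.8) and a difference of -2.48 ± 0.39 (adjusted p = 0.0177). Respiratory burst oxidase homolog E (LOC104901666), a membrane enzyme that makes superoxide outside the cell, had 0.488, 0.68 and 0.547 FPKM in CK_1 and between 3.29 and 4.96 in the other 9 libraries (difference -1.79, adjusted p = 0.0127). MYB39 (LOC104900532), whose Arabidopsis namesake promotes suberin synthesis, had 0.7, 1.26 and 0.498 FPKM in CK_1, 6.74, 7.5 and 15.5 in S_1, 2.49, 2.34 and 2.77 in CK_7, and 2.42, 1.35 and 1.11 in S_7. S_1 was highest without overlap, and the difference was -2.98 ± 0.45 (adjusted p = 0.015). ABCG32 (LOC104887729), an exporter of cutin precursors in Arabidopsis, differed by -3.08 (adjusted p = 0.0214), but not without CK_7 replicate 3 (0.0558) or S_7 replicate 1 (0.054). Caffeoyl-CoA O-methyltransferase At4g26220-type LOC104883950, another methylating enzyme, was opposite. It had 42.7, 36.8 and 27.6 FPKM in CK_1, 6.18, 7.8 and 9.08 in S_1, 9.52, 9.26 and 22.5 in CK_7, and 31.9, 34.9 and 36.8 in S_7. Its CK_1 and S_7 libraries lay above all of S_1 and CK_7 (difference 3.45 ± 0.43, adjusted p = 0.00677).

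**Figure D3:**
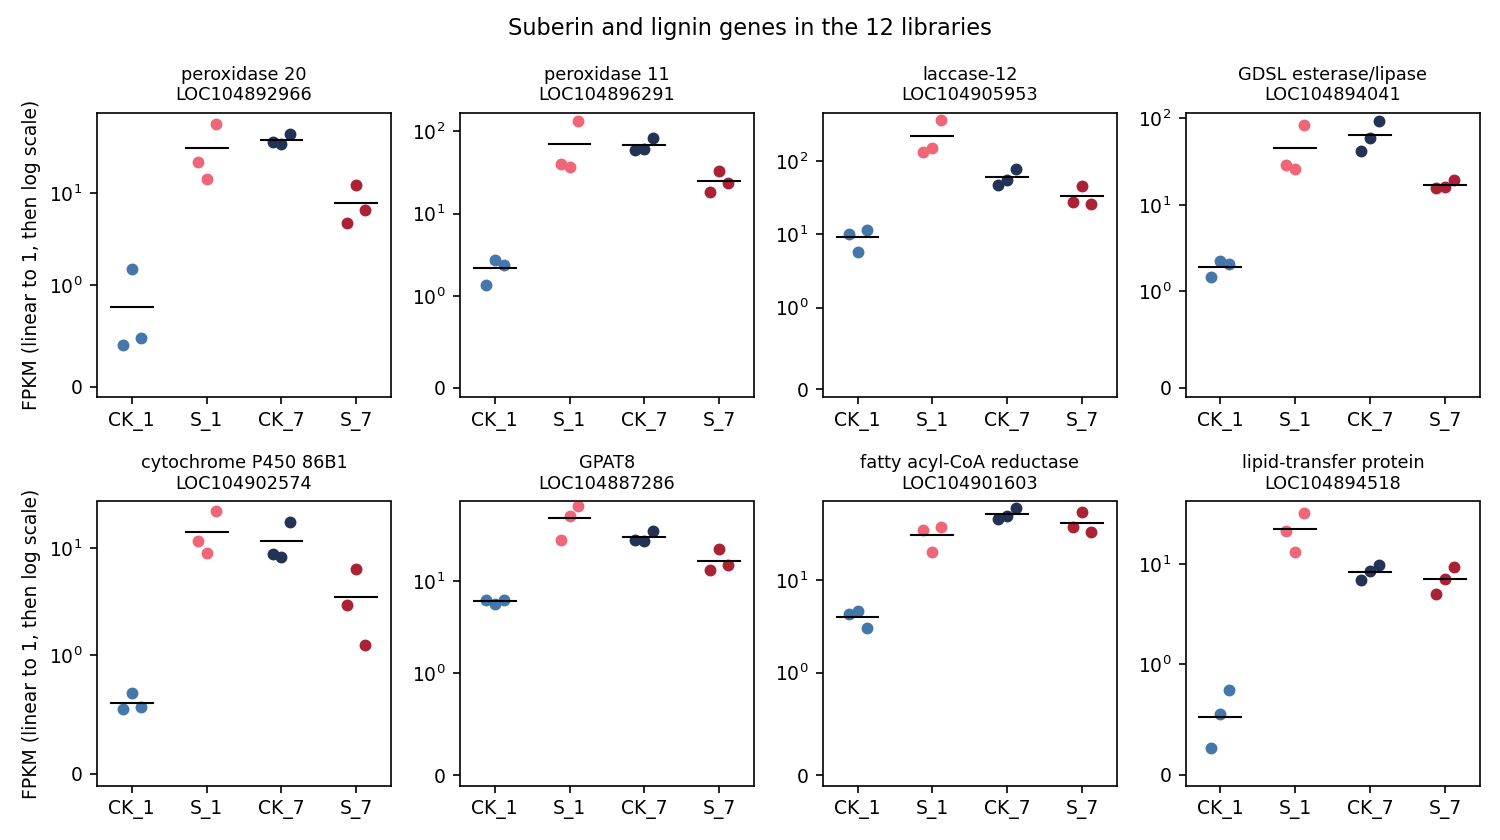
FPKM (vertical axis, linear up to 1 and logarithmic above) in each library of the 4 groups (horizontal axis) for wall and suberin genes whose salt effect was lower on day 7. Points are libraries and bars group means: the CK_1 mean is the lowest of the 4 in each panel, as for peroxidase 20 (0.788 FPKM).

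The called HKT carriers and the called K+ uptake genes differed in opposite directions. Of 89 genes for sodium, potassium and chloride transport, 4 had a lower salt effect on day 7 (4.49%, against 0.936% of all genes), namely 2 HKT carriers and 2 cation/H+ antiporters, and 3 a higher one (3.37%, against 0.826%), all of them for K+ uptake. The median was -0.01 over all members and 0.13 over the expressed ones. The HKT8-like gene (LOC104903830) had 3.6, 2.01 and 4.5 FPKM in CK_1, 5.94, 4.92 and 3.79 in S_1, 23.7, 14.3 and 18.9 in CK_7, and 0.272, 1.45 and 1.5 in S_7. CK_7 was highest, S_7 lowest and the day 1 groups overlapped. Salt lowered it by 3.31 ± 0.33 on day 7, the effect on day 1 was 0.46 ± 0.33 (adjusted p = 0.526), and the difference was -3.76 ± 0.47 (adjusted p = 0.00677).

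HKT6 (LOC104902377), of the same carrier family, had 0.11, 0.316 and 0.137 FPKM in CK_1, 1.58, 0.47 and 0.431 in S_1, 6.26, 8.81 and 6.28 in CK_7, and 0.826, 0.221 and 0.238 in S_7. Again only the CK_7 libraries were high, all others lying under 2 FPKM (difference -3.09 ± 0.38, adjusted p = 0.00677). The cation/H+ antiporters CHX14-like (LOC104894068, difference -2.83) and CHX15 (LOC104900258, difference -0.44), named after their values were seen, were also highest in CK_7, at means of 4.93 and 0.336 FPKM, and each call held in 3 of the 12 fits that leave out a library. The number of lower calls in the list was 2 without S_7 replicate 2 or 3, CK_7 replicate 1 or 3, or any library of CK_1. Xylem and phloem markers were also highest in CK_7, as given above.

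Potassium transporter 4 (LOC104897100) had 85.5, 92.8 and 103 FPKM in CK_1, 48.7, 35.3 and 32.9 in S_1, 48.8, 38.6 and 47.6 in CK_7, and 57.7, 60.2 and 51.6 in S_7. CK_1 was highest, S_1 and CK_7 overlapped, and S_7 lay just above CK_7. Salt lowered it by 1.26 ± 0.16 on day 1, and the difference was 1.59 ± 0.23 (adjusted p = 0.0127). The AKT1-like potassium channel (LOC104887696), named after its values were seen, had 6.46, 8.07 and 9.87 FPKM in CK_1, 4.28, 3.95 and 3.34 in S_1, 7.06, 9.81 and 6.91 in CK_7, and 21.6, 14.2 and 14.3 in S_7. It was lowered on day 1 by 0.9 and raised on day 7 by 0.98, with no overlap on either day, while the control groups overlapped (difference 1.87, adjusted p = 0.0177). Potassium transporter 8 (LOC104883983), chosen in the same way, had means of 8.14, 4.83, 5.64 and 7.77 FPKM and a difference of 1.06 (adjusted p = 0.0227), lost without CK_7 replicates 2 or 3 or S_7 replicates 1 or 3 (up to 0.0599).

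Plasma membrane ATPase 1 (LOC104894120), the proton pump that drives secondary transport, had means of 58.4, 102, 85.4 and 86.3 FPKM in CK_1, S_1, CK_7 and S_7. Its difference was -0.79 ± 0.16 (adjusted p = 0.0464) and held in only 1 of the 12 fits that leave out a library, that without CK_1 replicate 2. A tonoplast aquaporin (TIP-type, LOC104892761), a water channel of the vacuole, was the most abundant gene of the 95 named, with 1160, 2740 and 1120 FPKM in CK_1, 428, 338 and 503 in S_1, 106, 243 and 195 in CK_7, and 641, 360 and 485 in S_7. CK_1 was highest and CK_7 lowest, without overlap. The difference was 3.36 ± 0.65 (adjusted p = 0.037), and the call held only without CK_1 replicate 2 or 3. No other of the 26 aquaporins was called.

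The called nitrate transporters had a lower salt effect on day 7. Of 86 genes for nitrate, ammonium and nitrogen assimilation, 4 were called lower (4.65%, against 0.936% of all genes), all of nitrate transporter families, and 1 higher (1.16%, near the 0.826% of all genes), with a median of 0.1 over all members and 0.11 over the expressed ones. The nitrate transporter 2.5-like gene LOC104908398, whose Arabidopsis namesake is induced by nitrogen starvation, had 0.0274, 0 and 0 FPKM in CK_1, 0, 0.183 and 0.117 in S_1, 3.31, 4.79 and 6.69 in CK_7, and 0.344, 0.138 and 0.371 in S_7. CK_7 alone was above 1 FPKM (difference -2.29 ± 0.27, adjusted p = 0.00533). NRT1/PTR FAMILY 2.12 (LOC104897989), of the low-affinity carriers, had means of 0.104, 0.848, 2.49 and 0.813 FPKM and a difference of -1.68 ± 0.16 (adjusted p = 0.00322). It was raised by salt on day 1 and lowered on day 7. The number of lower calls was 2 without CK_1 replicate 3, S_1 replicate 1, CK_7 replicate 3 or any library of S_7.

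Glutamate dehydrogenase B (LOC104888710), which releases or fixes ammonium, had 185, 200 and 350 FPKM in CK_1, 200, 201 and 206 in S_1, 19.6, 28.9 and 29.2 in CK_7, and 141, 89.2 and 106 in S_7. CK_7 lay far below the rest, and the day 1 groups overlapped. Salt raised it by 2.07 ± 0.27 on day 7, against -0.21 ± 0.27 on day 1 (difference 2.28 ± 0.38, adjusted p = 0.0223). The amino acid transporter list (82 genes) had 3 lower calls (3.66%, against 0.936% of all genes) and 2 higher (2.44%, against 0.826%). The number of higher calls was 1 without S_1 replicate 1 or 3, CK_7 replicate 1 or S_7 replicate 2, and 0 without CK_1 replicate 1 or 3, S_1 replicate 2, CK_7 replicate 2 or 3, or S_7 replicate 1 or 3. The genes LOC104901778 and LOC109136398;LOC104906784 behind it held their calls in 2 and 1 of the 12 fits that leave out a library. Lysine histidine transporter-like 7 (LOC104903855) had 9.85, 9.08 and 9.21 FPKM in CK_7 and at most 2.1 in any other library (difference -2.52 ± 0.29, adjusted p = 0.00536). WAT1-related genes, of a family that holds the UMAMIT amino acid exporters, were likewise highest in CK_7: LOC104898776 had means of 1.96, 0.729, 16.2 and 0.594 FPKM (difference -2.71, adjusted p = 0.0186), and the joined locus LOC104886991 and LOC109134480 had 0.265, 0.804, 5.53 and 0.247 (difference -2.84, adjusted p = 0.00677).

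The called chaperone genes had higher means in CK_7 than in S_7. Of 80 heat shock genes, 6 were called lower (7.5%, against 0.936% of all genes). None was called higher, against 0.826% of all genes (1 higher at an unadjusted p under 0.05). The median was -0.41 over all members and -0.60 over the 61 expressed ones. The number of lower calls was 3 without CK_7 replicate 2, CK_7 replicate 3 or S_7 replicate 2. BAG6 (LOC104886797), a co-chaperone of the Hsp70 system, had 4.8, 3.84 and 4.79 FPKM in CK_1, 17.7, 8.3 and 12.6 in S_1, 13.2, 18.5 and 14.7 in CK_7, and 5.18, 5.7 and 6.26 in S_7. Salt raised it on day 1 by 1.29 ± 0.23 and lowered it on day 7 by 1.29 ± 0.23, with no overlap on either day (difference -2.57, adjusted p = 0.00772). ClpB1 (LOC104907875), a disaggregase of heat-damaged proteins, had means of 16.9, 32.5, 37.1 and 10.5 FPKM and a difference of -2.63 ± 0.37 (adjusted p = 0.0123). A class I small heat shock protein (LOC104896999) had 4.94, 0 and 2.21 FPKM in CK_1, 0, 1.91 and 3.52 in S_1, and 59.7, 129 and 68.2 in CK_7. It was listed at 0 in all 3 S_7 libraries, so no fold is given, and its call had an adjusted p of 0.0177.

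**Figure D4:**
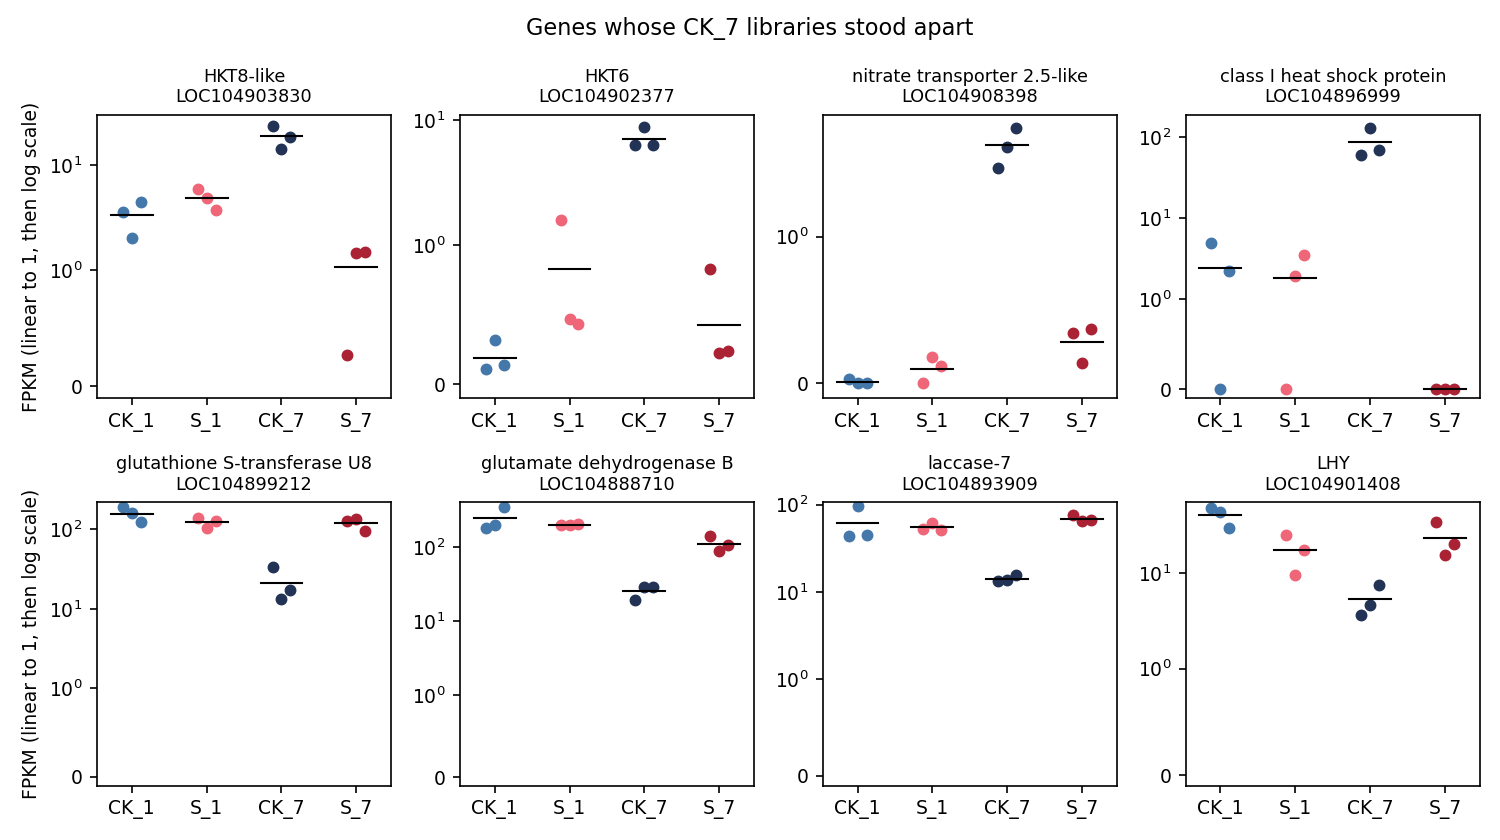
FPKM (vertical axis, linear up to 1 and logarithmic above) in each library of the 4 groups (horizontal axis) for 8 genes in which CK_7 stood apart, with bars at group means. The upper panels show genes high in CK_7, such as HKT6 (6.26 to 8.81 FPKM), and the lower panels genes low in CK_7, such as glutamate dehydrogenase B (19.6 to 29.2 FPKM).

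Of 66 genes of glycolysis and fermentation, salt raised 13 on day 1, where 2.87% of all genes were raised, and 1 on day 7, near the 1.34% of all genes. For 4 members the salt effect was lower on day 7 (6.06%, against 0.936% of all genes) and for 1 it was higher (1.52%, against 0.826%), and the median was -0.31 over all members and -0.35 over the expressed ones. The higher call was lost without CK_1 replicate 1 or any library of CK_7 or S_7. Cytosolic glyceraldehyde-3-phosphate dehydrogenase (LOC104897637), the oxidizing step of glycolysis, had 22.2, 24.4 and 20.7 FPKM in CK_1, 86.3, 120 and 158 in S_1, 333, 315 and 409 in CK_7, and 308, 192 and 166 in S_7. From lowest to highest the groups were CK_1, S_1, S_7 and CK_7 with no overlap, although the effect on day 7 was not called (-0.71 ± 0.27, adjusted p = 0.229). The difference was -3.05 ± 0.38 (adjusted p = 0.00677). A phosphoglycerate mutase-like gene (AT74, LOC104891051) had means of 4.88, 14.8, 12.7 and 0.942 FPKM, raised on day 1 and lowered on day 7 (difference -4.35 ± 0.49, adjusted p = 0.0044). Sucrose-phosphate synthase (LOC104909043), which makes sucrose, had 1.55, 2.47 and 1.49 FPKM in CK_1 and between 7.05 and 10.1 in the other 9 libraries (difference -1.37 ± 0.22, adjusted p = 0.0177). Sucrose synthase SBSS1, which cleaves it, differed by -1.84 (adjusted p = 0.0309), and its call was lost without S_1 replicate 3, CK_1 replicate 1 or any library of day 7 (up to 0.0763). The sugar transporter ERD6-like 16 (LOC104899261) had 5.02, 6.46 and 3.31 FPKM in CK_1 and at most 0.717 elsewhere (difference 2.14 ± 0.28, adjusted p = 0.00843).

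Receptor-like kinases, the largest list with 450 genes, were called more often in the direction of a higher salt effect on day 7. There were 11 such calls, 2.44% against 0.826% of all genes, and 4 in the other direction (0.889%, near the 0.936% of all genes). The median over expressed members was -0.02. The 11 became 7 without S_7 replicate 1. The LRR kinase At1g51820-type LOC104897462 had 10.4, 10.2 and 9.35 FPKM in CK_1, 3.3, 3.72 and 2.14 in S_1, 5.36, 5.05 and 6.71 in CK_7, and 8.82, 10.5 and 10.5 in S_7. CK_1 and S_7 overlapped, S_1 was lowest, and the difference was 2.17 ± 0.24 (adjusted p = 0.0044). The kinase At5g49770-type LOC104888626 was high in S_7 alone, at 8.46, 5.23 and 7.54 FPKM against 0.438 to 2.58 in the other 9 libraries (difference 2.59 ± 0.35, adjusted p = 0.00944). ZmPK1-like LOC104889102 was listed at 0 in all CK_1 and all S_7 libraries and had 2.99, 7.63 and 5.58 FPKM in S_1 and 8.23, 6.74 and 7.09 in CK_7. It was raised on day 1 and lowered on day 7 (adjusted p of the difference 0.000206).

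Several genes were listed at exactly 0 in whole groups. ERF3 (LOC104891730), an ethylene-responsive transcription factor, had 118, 140 and 138 FPKM in S_1 and 144, 159 and 153 in CK_7 and was listed at 0 in all libraries of CK_1 and S_7 (adjusted p = 1.43e-11). EP1-like LOC104891394, a secreted glycoprotein of the epidermis in carrot, had 74.8, 82.7 and 154 FPKM in S_1 and was listed at 0 in the other 9 libraries (adjusted p = 0.000101). An exact 0 can be a failed estimate. Among 133 cytosolic ribosomal protein genes that reached 20 FPKM, which every cell uses, 10 were listed at 0 in another library, and 7 of the called genes combine a 0 with 20 FPKM or more in another library. Of the ethylene factors that the study discusses, ERF107 (LOC104890277, adjusted p = 0.0527), ERF4 (LOC104900638, 0.137) and ERF2 (LOC104892796, 0.307) were not called. ERF107 was listed at 0 in 7 libraries, among them all of S_1 and CK_7.

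Further transcription factors were called in small numbers. WRKY factors, defence and stress regulators, had 2 higher calls of 48 (4.17%, against 0.826% of all genes), and 1 without CK_1 replicate 1 or S_7 replicate 1. WRKY42-like LOC104883380 had 10.7, 10.5 and 11.2 FPKM in CK_1, 5.98, 7.04 and 5.01 in S_1, 2.17, 1.59 and 2.54 in CK_7, and 8.09, 7.41 and 4.53 in S_7. CK_7 was lowest and CK_1 highest (difference 2.05 ± 0.3, adjusted p = 0.0127). bHLH101 (LOC104889603), which in Arabidopsis acts in iron deficiency, had means of 3.63, 0.562, 0.515 and 1.63 FPKM (difference 2.34 ± 0.35, adjusted p = 0.0154), although none of the 74 genes for iron, zinc and copper homeostasis was called (13 at an unadjusted p under 0.05). LHY (LOC104901408), a morning gene of the circadian clock, had 48.2, 43.7 and 29.3 FPKM in CK_1, 25.1, 9.5 and 17.6 in S_1, 3.69, 4.67 and 7.54 in CK_7, and 34.2, 15.6 and 20.2 in S_7. CK_7 lay below all other libraries. The hour of harvest is not given in the sources used here. The difference for LHY was 3.16 ± 0.56 (adjusted p = 0.0268), lost without CK_1 replicate 1, S_1 replicate 3, CK_7 replicate 1 or 2, or S_7 replicate 1 or 3 (0.0517 to 0.0635).

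Glutathione S-transferase U8 (LOC104899212), which conjugates xenobiotics and oxidation products, had 191, 160 and 123 FPKM in CK_1, 137, 103 and 128 in S_1, 33.3, 13.5 and 17.5 in CK_7, and 127, 135 and 95.6 in S_7. Only CK_7 was apart (difference 2.85 ± 0.43, adjusted p = 0.0154). The organic cation/carnitine transporter 7 (LOC104891334) was high in S_7 alone, with 14.2, 17 and 9.29 FPKM in CK_1, 22.1, 16.2 and 14.5 in S_1, 6.75, 9.27 and 8.81 in CK_7, and 101, 80.3 and 89.5 in S_7. Salt raised it by 3.3 ± 0.23 on day 7, against 0.38 ± 0.23 on day 1 (difference 2.93 ± 0.32, adjusted p = 0.0044). ABC transporters, ATP-driven exporters, had 4 higher calls of 103 genes (3.88%, against 0.826% of all genes) and 1 lower (0.971%, near the 0.936% of all genes). The 4 were 1 without CK_1 replicate 1, CK_7 replicate 2 or S_7 replicate 3, and 2 without CK_1 replicate 3, S_1 replicate 1 or 3, CK_7 replicate 1 or 3, or S_7 replicate 2. ABCB15-like LOC104887441 had 28, 16.1 and 14.8 FPKM in S_7 and at most 7.04 elsewhere (difference 2.32, adjusted p = 0.0208, and 0.0519 without CK_7 replicate 3). Cytochrome P450 87A3-like LOC104904168 had 8.26, 8.1 and 19.9 FPKM in S_7 and at most 1.35 elsewhere (difference 2.91 ± 0.48, adjusted p = 0.0204).

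Arogenate dehydrogenase 2 (LOC104901927), the last step of tyrosine synthesis and so a source of betalain pigments in beet, had 10.4, 14.6 and 18.4 FPKM in CK_1, 0, 0.00549 and 0 in S_1, 13.7, 14.2 and 14.7 in CK_7, and 19.4, 19.4 and 15.1 in S_7. It was close to 0 in all of S_1 and not in any other library (difference 4.23 ± 0.26, adjusted p = 0.000206). The ABP19 locus (LOC104887790 to LOC104887793, auxin-binding germin-like proteins joined in 1 entry) had 198, 175 and 236 FPKM in CK_1, 48.4, 82.6 and 66 in S_1, 103, 71 and 121 in CK_7, and 215, 190 and 179 in S_7. Salt lowered it by 1.64 on day 1, and S_1 and CK_7 overlapped (difference 2.64 ± 0.35, adjusted p = 0.00887). A second entry that joins LOC104887790 and LOC104887793 had means of 9.1, 2.94, 5.73 and 8.44 FPKM in CK_1, S_1, CK_7 and S_7. Its difference of 1.9 was not called (limma adjusted p = 0.148). Major allergen Mal d 1 (LOC104888645), of the PR-10 family, had 569, 1520 and 1260 FPKM in CK_1, 265, 392 and 377 in S_1, 154, 122 and 151 in CK_7, and 546, 666 and 520 in S_7. Salt lowered it on day 1 (-1.6 ± 0.37) and raised it on day 7 (2.01 ± 0.37), and the difference was 3.6 ± 0.53 (adjusted p = 0.0134).

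**Figure D5:**
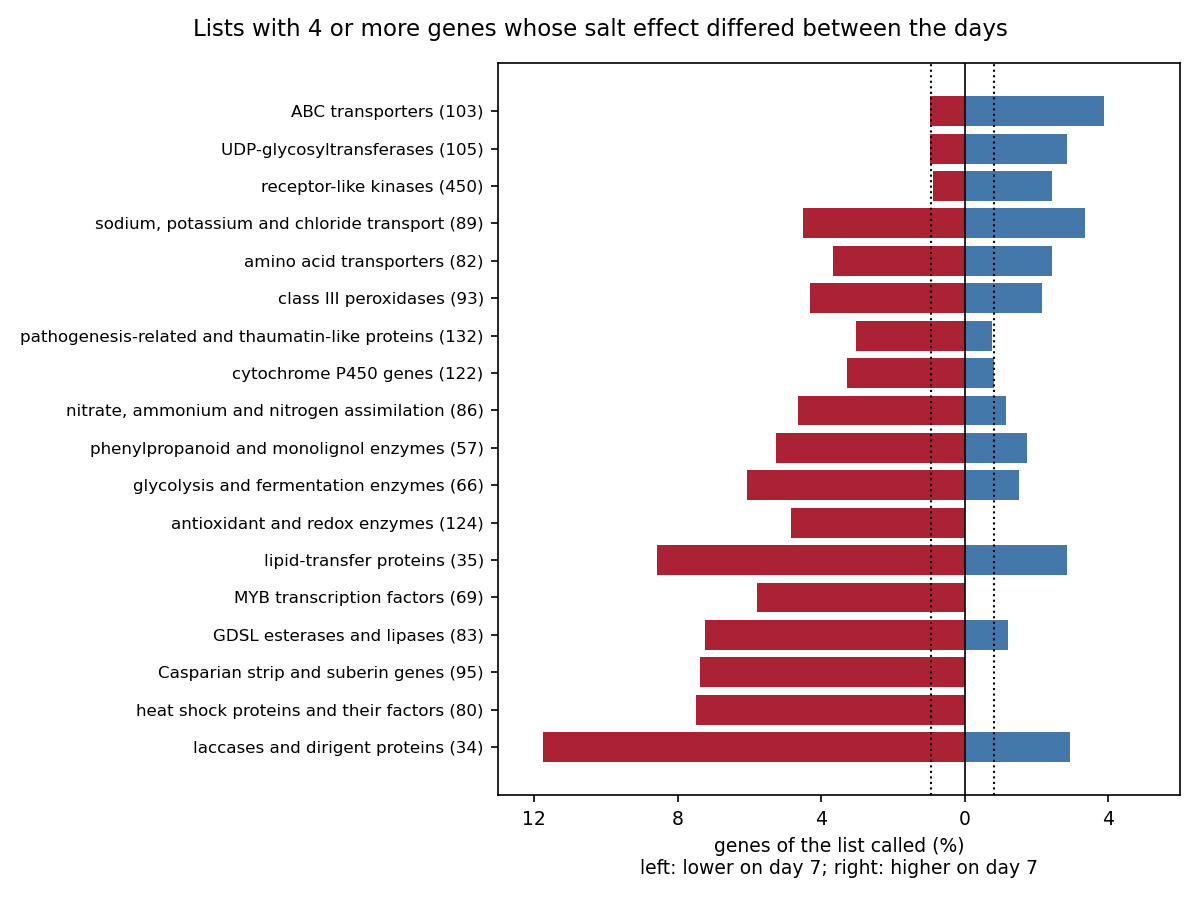
Share of each list called (horizontal axis, %), to the left for a lower and to the right for a higher salt effect on day 7, for lists with at least 4 called genes (vertical axis, number of genes in parentheses). Dotted lines mark the shares of all genes (0.936% and 0.826%), and laccases and dirigent proteins extend farthest to the left (4 of 34 genes).

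In 9 of the 48 lists, with 485 genes, limma called no gene. An unadjusted p under 0.05 was found in 72 of the 485, a share near the 14.7% of all genes. The 9 lists were abscisic acid, cytokinin, and gibberellin and brassinosteroid genes, metal homeostasis, sulfate and phosphate transport, cytosolic ribosomal proteins, mitochondrial oxidative phosphorylation, and the photosynthesis and vascular markers. Salt effects were nevertheless called within a day. Of 40 abscisic acid genes, for example, salt raised 5 on day 7 and 4 on day 1, against 1.34% and 2.87% of all genes. That these do not differ between the days is not shown by the missing calls.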

How the data were processed

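Roots of 12 sugar beet samples were measured by paired-end mRNA sequencing, and the authors deposited FPKM values for each gene and library. Per the labels, their notes name HISAT2 2.0, StringTie 1.3.0 and Bowtie 0.12.2; the build those notes list is a mouse build and was not used. FPKM values are divided by length and library total and hold no read depth, so no counting interval is given, and a rise of a few abundant genes lowers all others. Summed FPKM was between 382847 and 423530 per library.

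Groups were taken from the labels. All genes above 0 in at least 1 library (28320) entered 1 model of 4 group means for log2(FPKM + 1) with a variance trend (limma 3.58.1, under R 4.3.3), leaving 8 residual degrees of freedom; two-sided p-values were Benjamini-Hochberg adjusted over all genes. The contrasts were (S_7 - CK_7) - (S_1 - CK_1) and each salt effect. Named genes were the 12 highest and 12 lowest called differences with a mean of at least 5 FPKM, a description and no 0 beside 20 FPKM or more within a group, up to 3 called genes per list with the smallest p and a mean of at least 1 FPKM, and genes that the study discusses. Lists were built from descriptions. Members and lists were chosen with earlier results of these data known. "Expressed" means a mean of at least 1 FPKM. A locus that joins genes, as 23 called loci do, carries 1 value, and values of near-identical copies are uncertain. The scripts were tested on simulated data. Thresholds, pseudocounts, filters, scaling, replicate blocks and left-out libraries were varied. The deposited table holds no comparison columns, and promoter sequences were not analysed here.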

Additional observations from a re-analysis of the deposited data

Results flagged for a closer look

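Each of the 88 named genes past the threshold is listed because the test of the interaction itself found its salt effect to differ between the days (limma, adjusted over all genes). Values are day 7 minus day 1 in the salt effect, log2(FPKM + 1), and no explanation of them was tested. Among wall, lignin and suberin genes with a lower salt effect the differences were peroxidase 20 at -6.18, peroxidase 11 at -5.66, laccase-12 at -5.18, laccase-3-like at -1.47, GDSL lipase At1g74460 at -5.61, At2g23540 at -5.55, At5g22810 at -5.49 and At1g28610 at -2.07. Further lipid and suberin genes had cytochrome P450 86B1 at -4.73, the joined P450 locus LOC104887268 at -1.97, acyltransferase 8 at -3.54, fatty acyl-CoA reductase LOC104901603 at -2.99, reductase LOC104900337 at -2.01, acyl-CoA synthetase 4 at -4.49, lipid-transfer protein At2g13820 at -4.11, lipid-transfer protein LOC104904284 at -3.89, lipid-transfer protein At5g64080 at -2.98 and ABCG32 at -3.08. Other wall and phenylpropanoid genes had xyloglucan enzyme XTH24 at -3.47, caffeic acid methyltransferase at -2.48, cinnamyl alcohol dehydrogenase 6 at -2.47, caffeoyl-CoA methyltransferase at 3.45, laccase-7 at 2.28, the joined peroxidase 25 locus at 2.43, peroxidase N at 3.06 and peroxidase P7 at 3.25. Ion, water and proton transport gave HKT8-like at -3.76, HKT6 at -3.09, potassium transporter 4 at 1.59, plasma membrane ATPase 1 at -0.79 and the TIP aquaporin at 3.36. Nitrogen, amino acid and other organic transport gave nitrate transporter 2.5-like at -2.29, NPF2.12 at -1.68, glutamate dehydrogenase B at 2.28, WAT1-related LOC104886991 at -2.84, WAT1-related LOC104898776 at -2.71, lysine histidine transporter-like 7 at -2.52, organic cation transporter 7 at 2.93, DETOXIFICATION 43 at 3.18, ABCB11 at 1.71 and ABCB15-like at 2.32.

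Carbon and osmolyte genes gave cytosolic GAPDH at -3.05, NADP-dependent GAPDH at -2.34, the AT74 mutase-like gene at -4.35, sucrose synthase SBSS1 at -1.84, sucrose-phosphate synthase at -1.37, galactinol synthase 1 at -1.37, SWEET1 at -2.67, ERD6-like 16 at 2.14, thermospermine synthase ACAULIS5 at 2.15 and arogenate dehydrogenase 2 at 4.23. Chaperone, redox and thioredoxin-like genes gave the class I small heat shock protein at -6.17, ClpB1 at -2.63, BAG6 at -2.57, glutaredoxin-C6 at -2.98, the thioredoxin-like gene YLS8 at -1.5, respiratory burst oxidase E at -1.79 and glutathione S-transferase U8 at 2.85. Defence and germin-like genes gave glucanase 13 at -3.26, glucanase 4 at -1.41, Mal d 1 at 3.6, the joined germin-like locus at -3.52, the ABP19 locus at 2.64 and the jasmonate-induced protein homolog at 1.58. Genes listed by description with transcription factors gave ERF3 at -14.31, myb-like protein X at -6.11, MYB39 at -2.98, MYB28 at -1.77, NAC35 at -2.11, WRKY42-like at 2.05, WRKY61 at 2.69, bHLH101-like at 2.07, bHLH101 at 2.34, LHY at 3.16, the joined CONSTANS-LIKE 15 locus at 1.55 and the calmodulin-binding activator 4 at 1.03. Kinases, remaining enzymes and other genes gave ZmPK1-like at -5.67, kinase At1g51820 at 2.17, kinase At5g49770 at 2.59, the rumi-type glucosyltransferase at -1.32, the glycoprotein glucosyltransferase at 0.66, UDP-glycosyltransferase 86A2-like at 1.46, P450 87A3-like at 2.91, the joined ACC oxidase homolog locus at 1.27, EP1-like at -6.64, the F-box protein At1g60180 at 4.4, GOS9-like at 4.83 and immediate early response 3-interacting protein 1 at 6.14. The call held with each of the 12 libraries left out in 55 of the 88. The values of ERF3, EP1-like, ZmPK1-like, the class I small heat shock protein and the F-box protein include groups listed at 0, so their size depends on the pseudocount and is no fold. Values with a group near 0 also moved across settings, for example arogenate dehydrogenase 2 from 4.05 to 7.45. Immediate early response 3-interacting protein 1 ran from 5.53 to 10. It had 7.89, 10.3 and 0.122 FPKM in CK_1, and means of 0.13 in S_1, 0.0991 in CK_7 and 17.1 in S_7.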

How the results depend on the processing

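Gene filters, the variance trend, the p criterion and the replicate blocks do not change the differences themselves, so their signs were fixed there. The other pseudocount, the scaling and the left-out libraries can change them. Under each of these all 499 called genes kept the sign of their difference. The count of 499 (234 higher, 265 lower) became 483 with a pseudocount of 0.1, 461 with a mean of at least 1 FPKM, 655 with median ratio scaling (470 of the 499 among them), 616 without the variance trend, 521 without genes at 0 and 20 FPKM or more within a group and, chosen after seeing the data, 513 without such genes across any libraries. The study's criteria, an unadjusted p under 0.05 and a log2 difference beyond 1, gave 2042 genes (977 higher, 1065 lower) and 1438 for salt on day 7. Leaving out 1 library in turn gave 273 to 565 interaction calls, 116 to 267 higher, 145 to 298 lower, 776 to 1959 for salt on day 1 and 329 to 980 on day 7. Fitting the 6 libraries of day 1 alone, also chosen after seeing the data, gave 209 calls in place of 1482; the day 7 libraries alone gave 462 in place of 680. The cause of these shifts was not tested.

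The replicate numbers are shared by the groups. Over all expressed genes together, same-numbered libraries of a day did not deviate together (correlations -0.09 to 0.02). Whether such libraries share a factor that acts on some genes was not tested. With the replicate number as a block of 3 levels shared over the days there were 230 interaction calls (104 higher, 126 lower), 930 for salt on day 1 and 308 on day 7, and 56 of the 88 called named genes passed. With a replicate block of 6 levels, within days, there were 7 (1 higher, 6 lower), 256 and 49, and 4 of the 88 passed: ERF3, EP1-like, ZmPK1-like and arogenate dehydrogenase 2. Both blocks leave fewer residual degrees of freedom.

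With 3 libraries per group, an exact permutation test within a day cannot go below 0.1, so calls rest on limma's variance shared over genes. FPKM values hold no depth, and low genes cannot be given a counting error. The day, the age of the seedlings and any batch of a day's harvest cannot be told apart.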

Other observations

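The genes of this section lie outside the rule for named genes and were chosen after their values were seen. Several abundant stress and catabolic genes were highest in the day 1 controls. Universal stress protein PHOS34 (LOC104891270) had 335, 389 and 292 FPKM in CK_1, 52.1, 56.9 and 61.5 in S_1, 98.2, 74.1 and 87.7 in CK_7, and 105, 75.9 and 91.8 in S_7. The day 7 groups overlapped, and S_1 was lowest (difference 2.61, adjusted p = 0.00322). Phosphoenolpyruvate carboxykinase (LOC104897815), the entry step of gluconeogenesis, had 405, 314 and 543 FPKM in CK_1, 161, 128 and 138 in S_1, 17.3, 20.8 and 32.6 in CK_7, and 50, 43.3 and 57.4 in S_7. No groups overlapped, and the 2 control groups were the highest and the lowest (difference 2.63, adjusted p = 0.0115). Transcription factor TGA2.1 (LOC104889231), a bZIP factor of the salicylate response family, had 46.1, 41.9 and 55.3 FPKM in CK_1, 9.82, 12.3 and 11.8 in S_1, 20.9, 21.7 and 22.3 in CK_7, and 28.8, 22.3 and 22.7 in S_7 (difference 2.15, adjusted p = 0.00322). All 3 calls held with each library left out.

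Of the endoplasmic reticulum chaperones, 3 called genes are given as single values, since the KEGG pathway of protein processing in this organelle had 4 lower and 2 higher calls of 204 genes. Endoplasmin (LOC104905131), an Hsp90 of the secretory pathway, had 19.2, 33.4 and 14.4 FPKM in CK_1, 63.8, 77 and 54.2 in S_1, 127, 144 and 149 in CK_7, and 108, 81.2 and 110 in S_7. From lowest to highest the groups were CK_1, S_1, S_7 and CK_7, with no overlap (difference -2.07, adjusted p = 0.0329). Calnexin (LOC104908340) and protein disulfide isomerase-like 2-3 (LOC104902730), which fold secreted proteins, had group means of 50.2, 88.4, 168 and 124 FPKM and of 19.4, 34.9, 70.6 and 46.4 FPKM and differed by -1.24 and -1.44 (adjusted p = 0.0353 and 0.0261). Each of these 3 calls held in only 3 of the 12 fits that leave out a library.

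Quantitative PCR primers of the study exist for 2 further genes whose salt effect differed, shown for the same reason as those of peroxidase 11, 5′ to 3′ in lower case. Alpha carbonic anhydrase 7 (LOC104908840, on chromosome 7), which interconverts CO2 and bicarbonate, had 22, 7.75 and 36.3 FPKM in CK_1, 83.5, 187 and 176 in S_1, 137, 140 and 161 in CK_7, and 67.2, 58.9 and 65.5 in S_7 (difference -4.03, adjusted p = 0.0216, and 0.0553 without CK_7 replicate 3). Inorganic pyrophosphatase 2 (LOC104903666), a soluble enzyme that removes pyrophosphate, had 8.8, 4.49 and 8.19 FPKM in CK_1, 23.1, 29.3 and 21.1 in S_1, 49.7, 25.7 and 38 in CK_7, and 2.28, 12.9 and 4.08 in S_7 (difference -4.29, adjusted p = 0.0177). In both, S_1 lay above CK_1 and S_7 below CK_7 without overlap.
Alpha carbonic anhydrase 7 forward: aagatgggagggaggaagtatta
Alpha carbonic anhydrase 7 reverse: tgttcttccgacactgttcca
Inorganic pyrophosphatase 2 forward: atggagtgacggcgaagat
Inorganic pyrophosphatase 2 reverse: gattcaacaactgagcagcatt

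Of the KEGG pathways with at least 20 genes, cutin, suberine and wax biosynthesis had the largest share called, 5 of 23 genes (21.7%, against 1.76% of all genes), all with a lower salt effect on day 7, and ABC transporters had 4 of 33, all with a higher one. In 33 of the 48 lists the share called exceeded that of all genes tested.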
